A study of Mus musculus with 20 samples.

Results

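Bivalent chromatin regions that carried both H3K4me3 and H3K27me3 in fetal and in adult hematopoietic stem cells (HSCs) of the mouse were examined. The peaks of H3K4me3 of both stages were merged on chromosomes 1 to 19, and a region was kept when it overlapped an H3K4me3 peak of both stages and an H3K27me3 peak of both stages by at least 1 bp. Of 17586 merged H3K4me3 regions, 1962, or 11.2%, met this rule. They are called kept bivalent regions here. The regions were chosen by the measured H3K4me3 and H3K27me3 peaks, so the values of those marks are a description. Only H3K27ac and H3K4me1 were not used by the rule. Spacing is not independent of it, since 1 wide H3K27me3 peak can admit neighbouring regions together.

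Histone marks were mapped by chromatin immunoprecipitation and sequencing (ChIP-seq) in cells sorted as Lin-Sca1+cKit+CD135-, a gate for blood stem cells and early progenitors that lack the receptor CD135 (Flt3). The fetal group was the liver of B6129SF1 embryos at embryonic day 14.5, when the liver is the main site of blood formation. The adult group was the bone marrow of B6129SF1 mice of 6 to 8 weeks, with no treatment or altered gene named in the labels. Each reaction used 50000 cells, and each mark and stage had 2 samples, which the authors combined into 1 peak list. No value therefore carries a replicate error, and no test between stages was possible. A stage difference cannot be told apart from one of library quality, depth or peak calling. The labels do not say whether the samples came from separate animals.

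H3K4me3 is placed at gene starts by complexes of the SET1 and MLL family. H3K27me3 is written by Polycomb repressive complex PRC2 and goes with silent genes. Promoters with both marks are called bivalent and were described first at developmental regulator genes in embryonic stem cells, where they are silent or barely transcribed. Lysine 27 of histone H3 can carry an acetyl group or 3 methyl groups but not both, and H3K27ac marks active promoters and enhancers. H3K4me1 is found at enhancers and on the shoulders of active promoters. A peak list from many cells cannot tell a region with both marks on the same chromosome copy from a mixture of cells or copies with 1 mark each. Positions refer to mm9, gene positions of that build were not used here, and regions are given by coordinates without gene names or sequence.

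The kept bivalent regions were narrower than other H3K4me3 regions of both stages. Their median width was 1515 bp, with quartiles at 1222 and 1963 bp and a range of 686 to 6941 bp, and together they spanned 3.32 Mb. The 11655 regions with H3K4me3 at both stages and no H3K27me3 at either had a median of 2088 bp, and the 1222 with H3K27me3 in the fetal list only had a median of 1661 bp. Regions whose H3K27me3 was in the adult list only numbered 53. H3K4me3 itself was called at both stages in 84.7% of all merged regions.

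H3K4me3 covered nearly the same part of the kept regions at both stages. The fetal peaks covered a median of 1380 bp and 94.2% of a region, and the adult peaks 1416 bp and 97.0%. Adult H3K4me3 was the wider in 1121 regions, fetal H3K4me3 in 835, and 6 were equal. Among all regions with H3K4me3 at both stages the adult peak covered more bases in 56.5% and the fetal peak in 43.3%. The median difference was 44 bp toward the adult list, with quartiles from 194 bp more in adult to 126 bp more in fetal (fetal minus adult -44, -194 and 125.5 bp). H3K4me3 peaks here ranked low within their lists by the authors' score, a value of the peak caller with no stated unit. In the fetal list 35.2% of the regions had their best H3K4me3 peak in the lowest score quartile and 53.8% in the second, and in the adult list these shares were 47.2% and 43.7%.

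H3K27me3 took a different form at the 2 stages. In the fetal list it ran through the region and beyond it, and in the adult list it lay over the same place in short pieces. Fetal peaks covered a median of 100% of a region (lower quartile 90.4%) and covered 1362 regions from end to end. Adult peaks covered a median of 45.1% (quartiles 23.4% and 70.7%) and covered 35 regions from end to end. In bases the medians were 1378 in fetal and 686 in adult. The whole lists differed in the same direction, with a median peak of 1408 bp and 37.8 Mb covered in fetal against 280 bp and 9.31 Mb in adult, and the part of this in the kept regions was not tested. The fetal list had more H3K27me3 bases in 1916 regions, the adult list in 11, and 35 were equal.

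**Figure D1:**
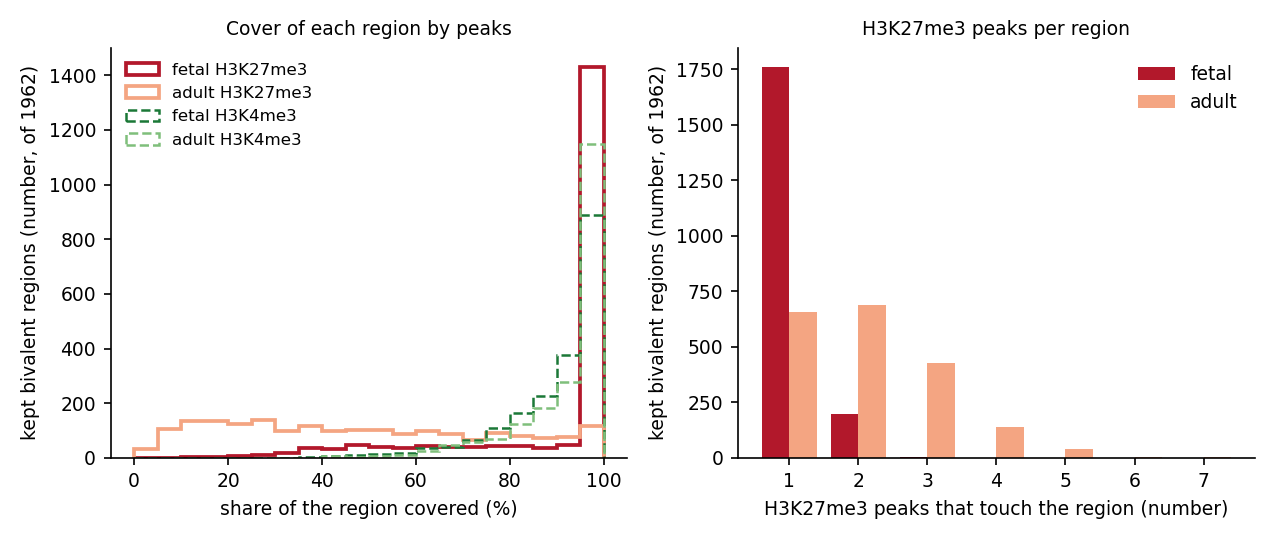
Left, number of kept bivalent regions (y axis) by the share of the region covered by peaks (x axis, %), for H3K27me3 (solid) and H3K4me3 (dashed) at each stage. Right, number of regions by the count of H3K27me3 peaks that touch them; 1760 regions had 1 fetal peak, and 614 had 3 or more adult peaks.

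A single fetal H3K27me3 peak touched 1760 of the regions, 2 peaks touched 197, and 3 peaks touched 5. In the adult list 658 regions had 1 peak, 690 had 2 and 614 had 3 or more, up to 7. The 2 marks shared bases in all 1962 regions of the fetal lists, with a median of 1234 bp (quartiles 968 and 1569). In the adult lists they shared bases in 1937 regions, with a median of 626 bp (353 and 948), and in 25 regions they shared no base. H3K27me3 was thus on 85.7% of the H3K4me3 bases in the fetal and 43.9% in the adult lists. All 4 peak sets met on the same bases in 1895 regions, with a median of 547 bp (293 and 840.5), and 67 regions had no such base.

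The cover around region centres shows how the marks were laid out. At the centre, fetal H3K27me3 covered 89.2% of the kept regions, and it still covered 63.3% at 2 kb and 20.1% at 5 kb. Adult H3K27me3 covered 41.2% at the centre, rose to 50.4% at 500 bp to either side, and was 18.0% at 2 kb and 6.47% at 5 kb. Adult H3K27me3 therefore had a dip at the centre that the fetal list did not show. Over regions scaled to equal length, adult cover was 41.5% in the middle 20% of the length, 48.7% in the outer 10% at each end, and 51.9% in between. H3K4me3 covered over 99% of centres at both stages (99.2% fetal and 99.5% adult) and 3.36% and 3.42% at 2 kb.

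**Figure D2:**
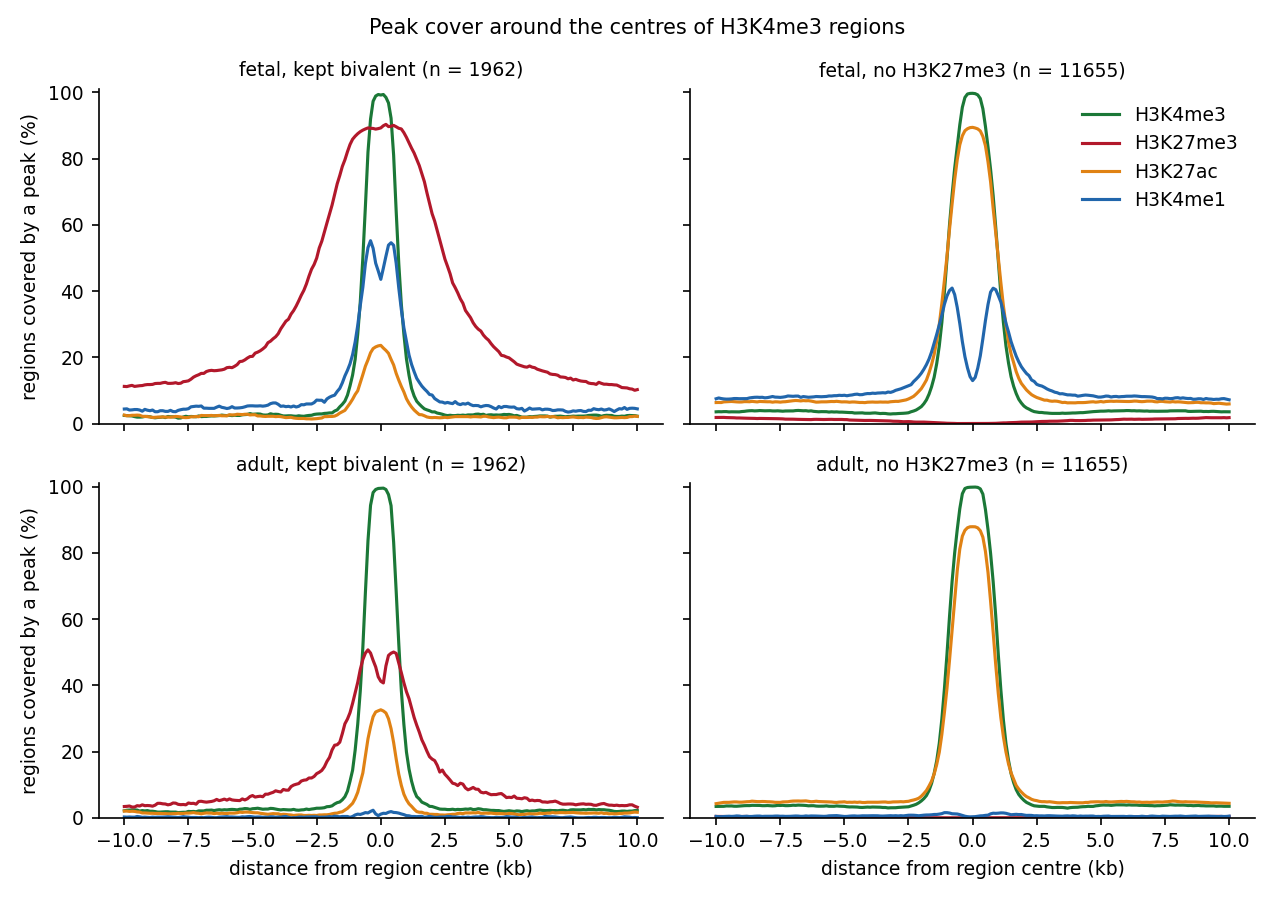
Share of regions covered by a peak (y axis, %) by distance from the region's centre (x axis, kb), fetal above and adult below, for the kept bivalent regions on the left and H3K4me3 regions without H3K27me3 on the right. Fetal H3K27me3 (red) reaches several kb past H3K4me3 (green), adult H3K27me3 is lower with a dip at the centre, and fetal H3K4me1 (blue) covers the centre of 43.5% of kept regions against 13.0% of regions without H3K27me3.

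The fetal peaks at kept regions were larger than the rest of that list. The 2062 fetal H3K27me3 peaks that touched a kept region had a median width of 4071 bp, against 1208 bp for the other fetal H3K27me3 peaks, and they made up 14.1% of the list. Only 25.9% of their length lay inside kept regions. Of those bases inside, 50.9% were also in an adult peak, and of their bases outside any H3K4me3 region 35.2% were. The rule asks for an adult peak inside, so the first of these shares is raised by the choice. The 4119 adult peaks at kept regions had a median width of 362 bp, against 265 bp for other adult peaks. A wide peak touches a region more readily than a narrow one, so both differences in width can also be raised by the choice. The 1353 fetal peaks that touched regions with fetal-only H3K27me3 had a median width of 1657 bp.

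Among regions with H3K4me3 at both stages and fetal H3K27me3, the share that kept the mark in the adult list rose with the score and width of the fetal peaks. When these regions were ranked by the best fetal H3K27me3 score into 5 equal groups, 15.5% of the lowest group were kept, then 39.2%, 71.6%, 87.4% and 94.3% of the highest. By the summed width of the touching fetal peaks the shares ran from 17.7% for the lowest group (443 to 1730 bp) to 91.8% for the highest (6499 to 69880 bp). These shares rest on the H3K27me3 peaks that the rule used and carry no test.

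H3K27ac, the mark of active elements, was found at a minority of kept bivalent regions. A fetal H3K27ac peak overlapped 498 of them, or 25.4% (95% exact Clopper-Pearson interval 23.5 to 27.4, counting error only), where 71.9% of all merged H3K4me3 regions had one. An adult peak overlapped 678, or 34.6% (32.4 to 36.7), where 71.4% of all regions had one. Regions without H3K27me3 at either stage carried it in 90.3% (89.8 to 90.8) of cases in fetal and 88.7% (88.2 to 89.3) in adult. Regions with fetal-only H3K27me3 lay between, at 53.0% (50.2 to 55.9) and 65.4% (62.6 to 68.0).

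Most kept regions had the same H3K27ac call at both stages, but this was not particular to them. Calls that differed between the stages were more frequent in kept regions than over all regions or in regions without H3K27me3. No H3K27ac was called at either stage in 1172 kept regions, 59.7% (57.5 to 61.9), where the share over all regions was 22.5%. It was present at both stages in 386, or 19.7%, against 65.8% over all regions. It was in the adult list only in 292, or 14.9% (13.3 to 16.5), and in the fetal list only in 112, or 5.71% (4.72 to 6.83), where all regions had 5.61% and 6.12%. Regions with fetal-only H3K27me3 had the same order as kept regions, with H3K27ac adult only in 17.6% and fetal only in 5.24%. In regions without H3K27me3 the order was the opposite, with 2.80% adult only and 4.38% fetal only. The order of the stages in the kept regions was not seen when only better-scoring peaks were used, which left 89 regions. Of these, 46 (51.7%) had fetal and 42 (47.2%) had adult H3K27ac, where all regions had 82.6% and 84.3%. So small a difference among 89 regions gives no order. When the longer list of each mark was shortened to its best peaks, to match the other stage in number, the shares were 16.05% in fetal and 33.6% in adult, where all regions had 65.4% and 72.2%.

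The 4 H3K27ac classes differed in the other marks. Regions with no H3K27ac had a median width of 1346 bp and were covered by adult H3K27me3 over a median of 55.2%. Regions with H3K27ac at both stages were wider, at 2126 bp, and fetal and adult H3K27me3 covered medians of 76.5% and 25.9% of them. Those with adult-only H3K27ac measured 1661 bp with 43.7% adult H3K27me3 cover, and those with fetal-only H3K27ac 1710 bp with 39.5%. The H3K4me3 score moved with these classes, with fetal medians of 1427 at both stages, 751.6 fetal only, 634 adult only and 277.2 in neither. The part of width and score in the difference in H3K27me3 cover was not tested.

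A graded relation was seen within the kept regions. From the lowest to the highest of 5 equal groups by adult H3K27me3 cover, adult H3K27ac was present in 53.2%, 39.8%, 38.2%, 23.7% and 17.9% of regions. Fetal H3K27ac followed the same order, with 44.02%, 32.9%, 26.97%, 14.8% and 8.16%. By fetal H3K27me3 cover, fetal H3K27ac was present in 59.3% (54.2 to 64.2) of the lowest group, which had 11.7% to 78.5% of their length covered, and in 24.2% (20.1 to 28.8) of the next. That next group had 78.7% to 100% of their length covered. Some of its regions thus tied with the 3 upper groups, which were covered over 100% of their length. Tied regions have no order among themselves. Adult H3K27me3 cover also fell with region width, and the part of width in these gradients was not tested.

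Where H3K27ac was called, it mostly shared bases with H3K27me3. In the fetal lists 477 of the 498 acetylated regions had bases under both kinds of peak, and 67.8% of the H3K27ac bases were also under H3K27me3, which covered 71.5% of the length of these regions. In the adult lists 589 of 678 did, and 32.4% of the H3K27ac bases were under H3K27me3, which covered 34.4%. H3K27ac bases were thus under H3K27me3 at about the rate that H3K27me3 covered the regions as a whole. Whether the marks sat on different histones, chromosome copies or cells cannot be told apart from these lists.

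The lower frequency of H3K27ac was also present among regions of like width and like H3K4me3 score. Width quartiles were set over all regions with H3K4me3 at both stages, with limits at 1479, 1984 and 2536 bp. In the narrowest quartile, which held 47.9% of the kept regions, 8.40% (6.71 to 10.4) of kept regions and 63.0% (61.0 to 64.9) of regions without H3K27me3 had fetal H3K27ac. In the widest quartile these shares were 67.7% (60.6 to 74.3) and 99.7% (99.4 to 99.8). For adult H3K27ac they were 15.1% (12.9 to 17.6) and 53.2% (51.1 to 55.2) in the narrowest, and 70.8% (63.9 to 77.2) and 99.5% (99.2 to 99.7) in the widest. Regions were also split at 3 fetal H3K4me3 scores (486.5, 2118 and 3100), the quartiles over all regions with H3K4me3 at both stages and not the quartiles of the peak list used above. Many scores tie at 3100, so few regions lie above the last limit. Up to a score of 486.5, 7.15% (5.67 to 8.87) of kept regions had fetal H3K27ac against 63.3% (61.2 to 65.3) of those without H3K27me3. Between 2118 and 3100 the gap was smaller, at 89.5% (83.3 to 94.0) of 143 kept regions against 99.6% (99.4 to 99.7), and only 9 kept regions lay above 3100. Between adult H3K4me3 scores of 1732 and 3100, adult H3K27ac was at 96.9% (92.2 to 99.2) of 129 kept regions against 99.8% (99.7 to 99.9).

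**Figure D3:**
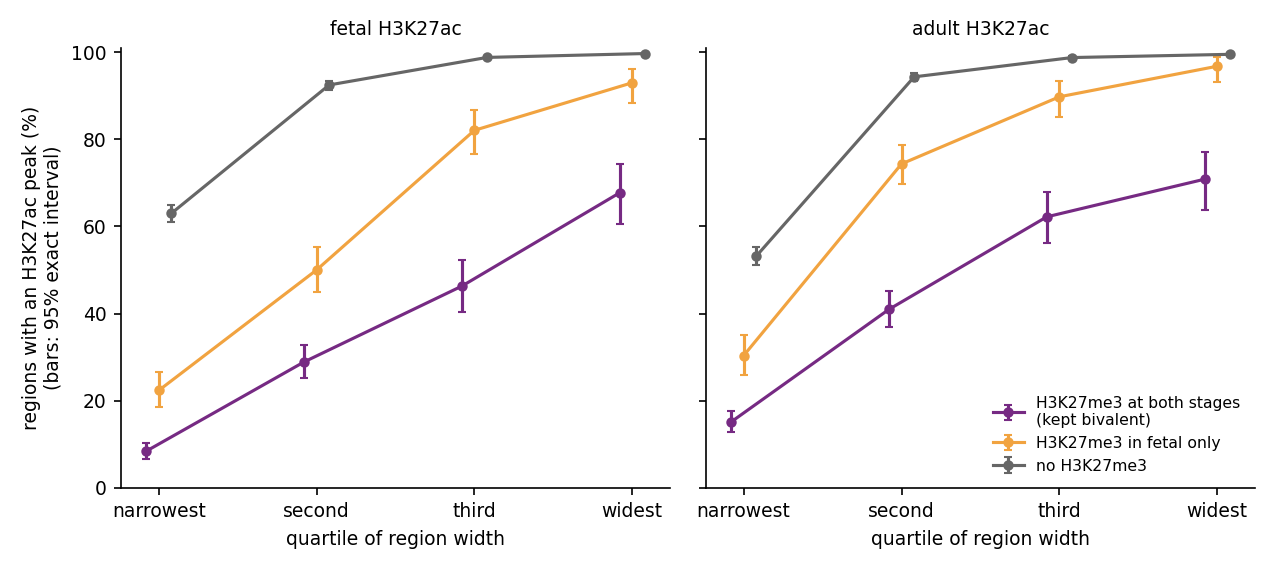
Share of regions with an H3K27ac peak (y axis, %, with 95% exact intervals) by quartile of region width (x axis), for fetal H3K27ac on the left and adult on the right. In each quartile and at both stages the kept bivalent regions (purple) lie below regions with fetal-only H3K27me3 (orange) and regions without H3K27me3 (grey).

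H3K27ac next to the kept regions mostly went with H3K27ac inside them, so its lower frequency there is not a separate result. Within 5 kb to either side a fetal H3K27ac peak lay beside 16.7% (15.0 to 18.4) of them and an adult peak beside 11.1% (9.75 to 12.6). Beside regions without H3K27me3 these shares were 67.7% (66.8 to 68.5) and 43.8% (42.9 to 44.7). Counting the region and its flanks together, 1371 of 1962 kept regions had no fetal and 1225 had no adult H3K27ac. Among regions with fetal-only H3K27me3 these were 505 and 383 of 1222, and among those without H3K27me3 943 and 1134 of 11655.

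H3K4me1 was called at most kept regions in the fetal list and at few in the adult list. A fetal H3K4me1 peak overlapped 1813, or 92.4% (91.1 to 93.5), where all merged H3K4me3 regions had 86.3%. An adult peak overlapped 261, or 13.3% (11.8 to 14.9), against 11.3%. Both stages had it in 254 regions, 12.9% against 11.1% over all regions. It was fetal only in 1559, 79.5% against 75.3%, adult only in 7, 0.357% against 0.216%, and in neither list in 142, 7.24% against 13.4%. The adult H3K4me1 list as a whole held 12502 autosomal peaks against 92339 in the fetal list, so that the difference between stages goes with the size of the lists. With equal numbers of top-ranked peaks 23.3% of kept regions had fetal and 14.0% adult H3K4me1, and all regions had 20.4% and 11.3%.

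The place of fetal H3K4me1 inside the region differed more than its frequency. In kept regions it covered a median of 53.1% of the length, and in regions without H3K27me3 33.2%. Over the middle 20% of the length it covered 44.7% of the kept regions, 31.6% of those with fetal-only H3K27me3 and 13.8% of those without H3K27me3. Over the outer 10% at each end it covered 45.6%, 37.6% and 53.5%. In regions without H3K27me3 taken as a whole, H3K4me1 thus lay on the shoulders with a gap in the middle. In the kept regions the middle was covered about as much as the ends, but less than the parts in between, at 58.0%. In regions without H3K27me3 the parts in between were at 45.1%. The gap in the middle was thus present in the kept regions but shallower. The 1128 regions with neither H3K27me3 nor fetal H3K27ac also had like cover in the middle and at the ends, 23.0% and 22.3%. In kept regions without fetal H3K27ac these were 45.1% and 42.9%. Like cover in the middle and at the ends was therefore not particular to the kept regions.

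The higher middle cover was present in each width quartile. The middle cover of kept regions was 46.3%, 44.1%, 41.0% and 44.5% from the narrowest to the widest. In regions without H3K27me3 it was 34.3%, 11.5%, 6.32% and 8.32%. Kept regions with fetal H3K27ac had 43.5% and those without it 45.1%, so that their middle cover differed little with acetylation. In regions without H3K27me3 the middle cover was 12.8% with fetal H3K27ac and 23.0% without it. With equal numbers of top-ranked peaks, an alternative chosen after seeing the data, the middle cover was 13.9% in kept regions and 5.16% in regions without H3K27me3.

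**Figure D4:**
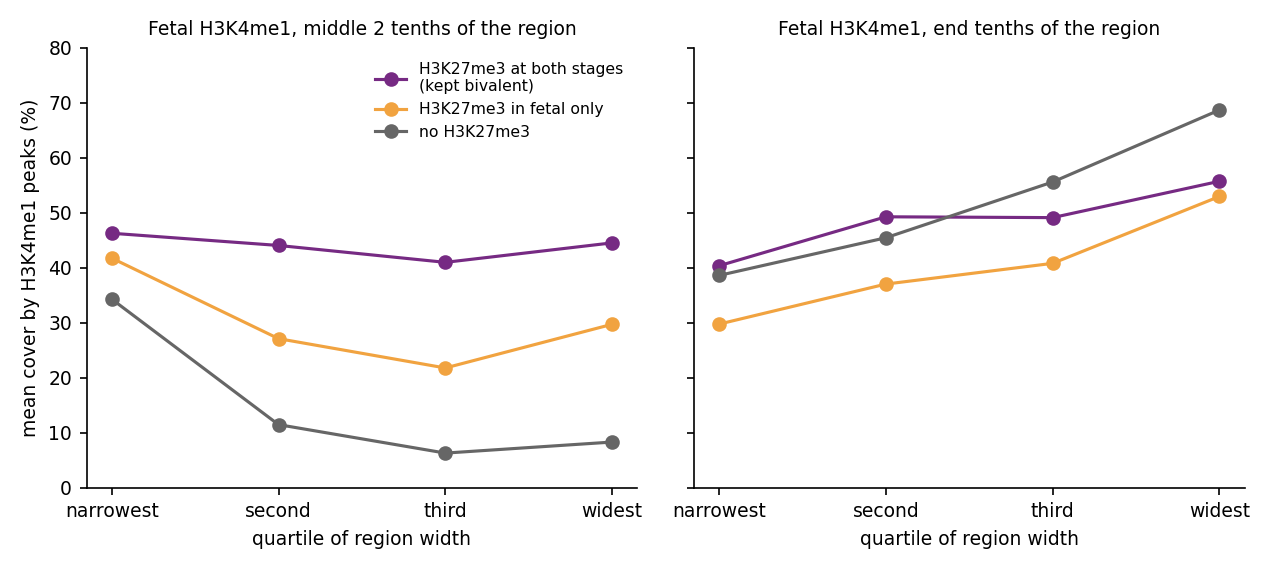
Mean cover by fetal H3K4me1 peaks (y axis, %) over the middle 20% (left) and the outer 10% at each end (right) of H3K4me3 regions, by quartile of region width (x axis). In the middle the kept bivalent regions (purple) stay between 41.0% and 46.3%, and regions without H3K27me3 (grey) fall from 34.3% to between 6.32% and 11.5%.

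Kept bivalent regions lay closer to one another at short range than other H3K4me3 regions lay to them. Another kept region lay within 50 kb of 406 of them, 20.7% (18.9 to 22.6), where 14.6% of all merged regions had a kept region that near. Within 20 kb the share was 15.1% (13.6 to 16.8) for kept regions, 9.25% (7.68 to 11.0) for those with fetal-only H3K27me3 and 4.47% (4.10 to 4.86) for those without H3K27me3. At 100 kb the shares were 29.2%, 29.6% and 24.6%, and the median distance to the nearest kept region was 258 kb for kept regions and 254 kb for those without H3K27me3. Against regions without H3K27me3 the excess was seen up to 100 kb and not in the median distance, and against fetal-only regions at 20 kb. With only the better-scoring peaks none of the 89 regions left lay within 50 kb of another. Kept regions were otherwise more isolated from H3K4me3, with a median of 28.6 kb to the nearest other H3K4me3 region of any kind against 20.5 kb for regions without H3K27me3.

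Along the chromosome the next H3K4me3 region was also kept for 320 of 1961 kept regions, 16.3% (14.7 to 18.0), where it was for 11.2% of all regions. For regions with fetal-only H3K27me3 it was 13.5% (11.6 to 15.6), an interval that overlaps that of the kept regions, and for regions without H3K27me3 9.60% (9.07 to 10.2). With only the better-scoring peaks it was 1.12%, where 1.03% of all regions were kept. In 99 of these 320 pairs 1 fetal H3K27me3 peak spanned both regions, and 83 pairs lay within 5 kb, the closest 22 bp apart. Such a shared peak meets the fetal H3K27me3 part of the rule for both regions, and its part in the nearness was not tested. Fetal H3K27me3 peaks that touched 2 or more kept regions numbered 96, with up to 4 on 1 peak. Peaks of 10 kb or more touched 245 kept regions. Of 220 neighbouring pairs chained within 50 kb, 145 had fetal H3K27ac at neither member, 60 at 1 member only and 15 at both. In the adult list these were 124, 69 and 27.

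**Figure D5:**
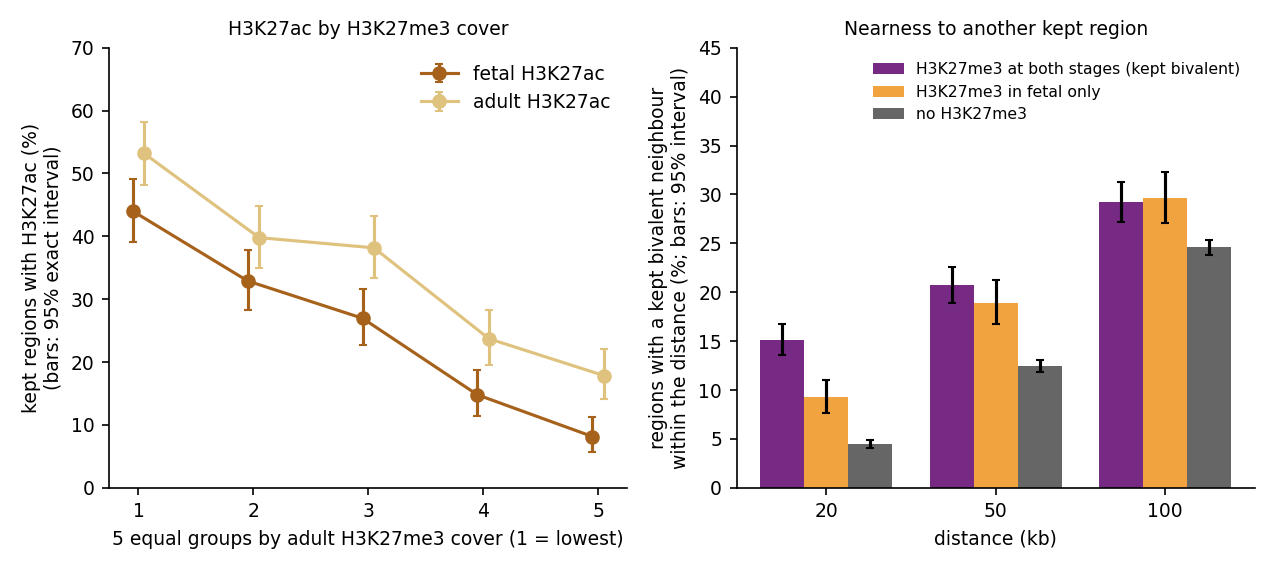
Left, share of kept bivalent regions with H3K27ac (y axis, %) in 5 equal groups by their adult H3K27me3 cover (x axis), which falls from 53.2% to 17.9% for adult H3K27ac. Right, share of regions with another kept region within 20, 50 or 100 kb (x axis), which at 20 kb is 15.1% for kept regions and 4.47% for regions without H3K27me3; bars are 95% exact intervals.

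Chained within 50 kb, the kept regions formed 1556 single regions and 186 groups, of which 160 had 2 members, 20 had 3, 4 had 4 and 2 had 5. Fetal H3K27me3 peaks touching a grouped member summed to a median width of 7302 bp against 4428 bp for single regions, and adult cover was 54.2% against 42.8%. They carried H3K27ac in 20.7% (16.8 to 24.96) of cases in fetal and 27.3% (23.1 to 32.0) in adult, and single regions in 26.6% (24.4 to 28.9) and 36.4% (34.0 to 38.9).

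The largest groups show the range of these layouts. The group of 5 at chr13:113777256-113826016 had fetal H3K27me3 over 41.1% and adult over 25.2% of its span, in 4 and 23 peaks, and no H3K27ac in any member. The group of 5 at chr7:52616428-52671501 had fetal H3K27ac in 3 members and adult in 1. The group of 4 at chr2:115886971-115902332 lay wholly inside 1 fetal H3K27me3 peak, and 22 adult peaks covered 73.7% of the group's span, with no H3K27ac and fetal H3K4me1 at all 4 members. On chromosome 11 the group at chr11:118883602-118953051 had H3K27ac in 3 of 4 members at both stages, and that at chr11:97392940-97437359 in none in fetal and 1 in adult. The group at chr14:122805131-122875505 also had none in fetal and 1 in adult.

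By chromosome the kept share of H3K4me3 regions ran from 8.44% (6.68 to 10.5) on chromosome 17 to 15.4% (12.3 to 18.8) on chromosome 18. Chromosome 12 followed at 13.6% (11.0 to 16.4), and the intervals of the other chromosomes included the 11.2% of all regions.

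The 5 widest kept regions all had H3K27ac at both stages, and adult H3K27me3 covered at most 10.75% of the length of the first 3. The widest, chr13:63663407-63670347 (6941 bp), had fetal H3K27me3 on 1573 bp and adult on 172 bp, and H3K27ac on 4826 and 4175 bp. At chr5:111844717-111851017 (6301 bp) H3K27me3 covered 2313 and 145 bp, and the adult peak did not touch adult H3K4me3. At chr9:63865505-63871632 (6128 bp) it covered 1069 and 659 bp, with H3K27ac on 4923 and 3166 bp. The other 2 had more H3K27me3. The region chr4:48054992-48060676 had it on 2815 and 2372 bp of 5685, and chr14:22803930-22809516 on 5587 and 2778 bp of 5587.

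Regions with the most bases under both marks at both stages were of a different kind. The first, chr17:63228882-63233832 (4951 bp), had 3111 bp under all 4 peak sets, no H3K27ac at either stage, and fetal H3K4me1 on 2942 bp. It was also the widest kept region without H3K27ac. At chr14:58693149-58695892 (2744 bp) the shared bases were 2473, and at chr11:75006524-75009159 (2636 bp) 2339, and both had no H3K27ac. The remaining 2 carried H3K27ac. At chr17:8993155-8995652 (2498 bp, 2353 shared) it lay on 2257 bp in fetal and 975 bp in adult, and at chr19:58527551-58530304 (2754 bp, 2234 shared) on 1190 and 814 bp. The other wide regions without H3K27ac were chr11:44430082-44434202 (4121 bp), where H3K27me3 covered 4121 and 3400 bp, and chr1:180457341-180461108 (3768 bp), with 3768 and 1898 bp.

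Single regions with H3K27ac at 1 stage did not all follow the order seen over all kept regions. At chr16:22160327-22164282 (3956 bp) fetal H3K27ac covered 3325 bp and adult none, and H3K27me3 was on 527 bp in fetal and 2658 bp in adult, which is 1 of the 11 regions with more adult than fetal H3K27me3. At chr16:85800707-85804903 (4197 bp) fetal-only H3K27ac covered 3335 bp, and H3K27me3 was on 1918 and 389 bp. At chr2:10293655-10297315 (3661 bp) fetal-only H3K27ac covered 1940 bp, with H3K27me3 on 1897 and 319 bp. Of the widest with adult-only H3K27ac, chr4:28739236-28743288 (4053 bp) had 1397 bp of it and H3K27me3 on 2050 and 171 bp. The others were chr7:123174420-123178488 (4069 bp), with 963 bp and H3K27me3 on 3915 and 1964 bp, and chr5:108795259-108798964 (3706 bp), with 1957 bp and H3K27me3 on all 3706 and on 1744 bp.

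The 1 bp rule admitted regions with little adult H3K27me3. The smallest overlap was 1 bp, at chr5:75462726-75464038, and the next 6 bp, at chr3:86977659-86979170. Fewer than 100 bp of adult H3K27me3 lay in 44 regions, and fewer than 500 bp in 684, or 34.9%. Just outside the rule, chr6:107479566-107480704 touched an adult peak end to end without sharing a base, and chr4:3797782-3799089 lay 2 bp from one. Of the 1222 regions with fetal-only H3K27me3, 102 had an adult peak within 500 bp.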

How the data were processed

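ChIP-seq of 4 histone marks in 20 samples (4 of them input) was available as 8 deposited peak lists. Per the submitters' processing notes, Bowtie2 2.2.2 and mm9 were used. Names of the deposited peaks begin with MACS. The version, control and settings of the caller are not given in the sources used here. The peak score is the authors' deposited value, at least 50 in each list, and was used only to rank peaks within a list. Lists were taken as pooled over 2 replicates because they are titled combined, so the read depth and the error between samples are unknown. Intervals are 95% Clopper-Pearson intervals over regions and cover counting error only, and neighbouring regions are not independent.

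Peaks on chromosomes 1 to 19 that shared at least 1 bp were merged, and covered bases were counted per region. Named regions were the widest, those with the most bases under all 4 peak sets, the largest groups (all tied ones), the widest of each H3K27ac class, and those next to the threshold. The rule asked for 3 groups; 6 are given because 4 tied. The region set and the lists of results were chosen with earlier results of these data known. Alternatives used better-scoring peaks (down to a list's median score), equal numbers of top-ranked peaks, 500 bp of overlap, merging within 1 kb, direct overlap of marks, 50% cover, and distances of 20 and 100 kb. On simulated data, used to test the overlap step, 200 of 200 planted regions were recovered. No mm9 genome or annotation was used here. Python 3.11.15, numpy 2.4.6, pandas 2.3.3, scipy 1.17.1 and matplotlib 3.10.9 were used.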

Additional observations from a re-analysis of the deposited data

Results flagged for a closer look

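Regions outside chromosomes 1 to 19 were in no comparison. They are flagged because more than 3 of them met the same criteria, which is a fixed limit and not a measure of excess. On the X chromosome 13 of 557 merged H3K4me3 regions, 2.33% (1.25 to 3.96), overlapped both marks at both stages, against 11.2% on chromosomes 1 to 19. Another 52 regions on X had H3K27me3 in the fetal list only. Fetal H3K4me1 overlapped 2 of the 13 and H3K27ac none in fetal and 1 in adult, and adult H3K27me3 covered a median of 8.26% of them. On unplaced contigs 4 of 24 regions met the criteria.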

How the results depend on the processing

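No paired analysis was possible because the replicates are pooled within every list, which also kept any replicate from being left out. Shares of regions were held to their 95% interval and other values to 1.5 times the reported value. Of 60 recomputed values 33 stayed within these limits and 27 did not, and the cause was not tested unless the construction shows it. With only the better-scoring peaks 89 regions were left, since their H3K4me3 scores are low. Their median width was 3063 bp, H3K27me3 covered medians of 55.9% (fetal) and 16.3% (adult), H3K27ac was at 51.7% and 47.2%, and H3K4me1 at 84.3% and 11.2%, where all regions had 72.7% and 5.24%. Of these regions 0 lay within 50 kb of another, and 1.12% had a kept region next, where 1.03% of all regions were kept. With equal numbers of peaks fetal H3K27ac was at 16.05%, where all regions had 65.4%, and fetal H3K4me1 at 23.3%, and, added after seeing the data, H3K4me1 middle cover was 13.9% in kept regions and 5.16% in those without H3K27me3. With 500 bp of H3K27me3 at each stage 1278 regions were left, of which 22.3% had fetal H3K27ac, 95.6% fetal H3K4me1, 14.9% a kept region within 50 kb and 11.0% a kept region next, where 7.27% of all regions were kept. Merging within 1 kb gave 72.8% adult H3K27me3 cover, as it fills gaps, and 17.8% within 50 kb. With 50% of the region covered, H3K27ac was at 20.3% and 27.9%, fetal H3K4me1 at 53.6% and adult H3K4me1 at 0%. The shares over all regions at 50% cover were not computed. Over all regions the median cover was 81.2% for fetal and 74.6% for adult H3K27ac, and 36.4% for fetal H3K4me1. The 0% goes with the short adult H3K4me1 peaks, which covered a median of 175 bp of the kept regions they overlapped. Within 20 kb and 100 kb the shares near another kept region were 15.1% and 29.2%, where all regions had 6.91% and 25.9%. For the 14.9% and 17.8% within 50 kb the shares over all regions were not computed.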
